A study of Mus musculus with 12 samples.

Results

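Livers of mice that overexpress the transcription factor E4BP4 in the liver (TG) were compared with livers of wild-type mice (WT) at zeitgeber time 14 (ZT14, counted in hours from lights on), in the early dark phase. The comparison uses 3 TG and 3 WT libraries, 6 of the 12 libraries of the series; the other 6 hold the same genotypes at ZT2. The mice were 8-week-old males of the C57BL/6 background, untreated and fed chow, in a cycle of 12 h of light followed by 12 h of dark, and each library was made from polyadenylated RNA of 850 ng of total liver RNA. The labels name the overexpression as liver-specific but give neither the promoter nor the founder line of the transgene, and they do not state whether the samples of a group came from separate mice. The p-values therefore measure only the spread between these samples, which may be technical. Of 48440 genes in the files, 15244 had enough reads to be tested on total gene reads, which count every read placed in a gene whether exonic or intronic.

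E4BP4, encoded by Nfil3, is a basic leucine zipper (bZIP) repressor that binds D-box elements. The activators DBP, TEF and HLF, which form the PAR bZIP family, bind the same elements, and in liver both kinds of factor carry time-of-day signals from the core clock to genes of lipid, bile acid and drug metabolism. In wild-type liver their abundances are known to run in opposite phase.

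The 6 libraries at ZT14 held between 21979960 and 23981021 total gene reads. The 13 hepatocyte markers tested took between 83190 and 105661 CPM in sum. In such sums over a list, CPM scales reads to all gene reads of the library. For single genes, CPM scales them to the TMM-scaled reads of the genes that passed the filter. None of the hepatocyte markers differed at an unadjusted p under 0.05 (at most 1 did when 1 library at ZT14 was left out). Of 16 pancreas, gut and adipose genes, 7 had no read in any of the 6 libraries. TG replicate 3 stood apart from the other 5 libraries: on the first principal component of the ZT14 libraries, which held 34.3% of their variance, it lay at 39.0 while the others lay between -10.97 and -1.67. Beside the gene lists below, counts without this library are given where they differ by more than 1.5 times. In whole liver, fewer cells of a type and less RNA per cell cannot be told apart.

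On total gene reads, 13 of 15244 genes passed an adjusted p of 0.05 (0.0853% of the genes tested), 7 higher in TG (0.0459%) and 6 lower (0.0394%). An unadjusted p under 0.05 was reached by 1053 genes (6.91%), 537 of them higher (3.52%) and 516 lower (3.38%), and the median log2 fold change of all genes tested was 0.01. DESeq2, run on the same counts, called 53 of 14651 genes (0.362%). Read by class, 12 of 12761 genes passed on uniquely mapped exon reads (0.094%) and 5 of 11383 on uniquely mapped intron reads (0.0439%). Together 15 genes passed on at least 1 of these readouts, 11 on both total and exon reads, and 3 (Gpr137, Bad and Rps6ka4) on all of them. Of the 13 genes called on total reads, 7 lie in 1 stretch of chromosome 19, 3 belong to the Nat8 family of acetyltransferases on chromosome 6, and the other 3 are Nfil3, Cadm3 and Unc13b.

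**Figure D1:**
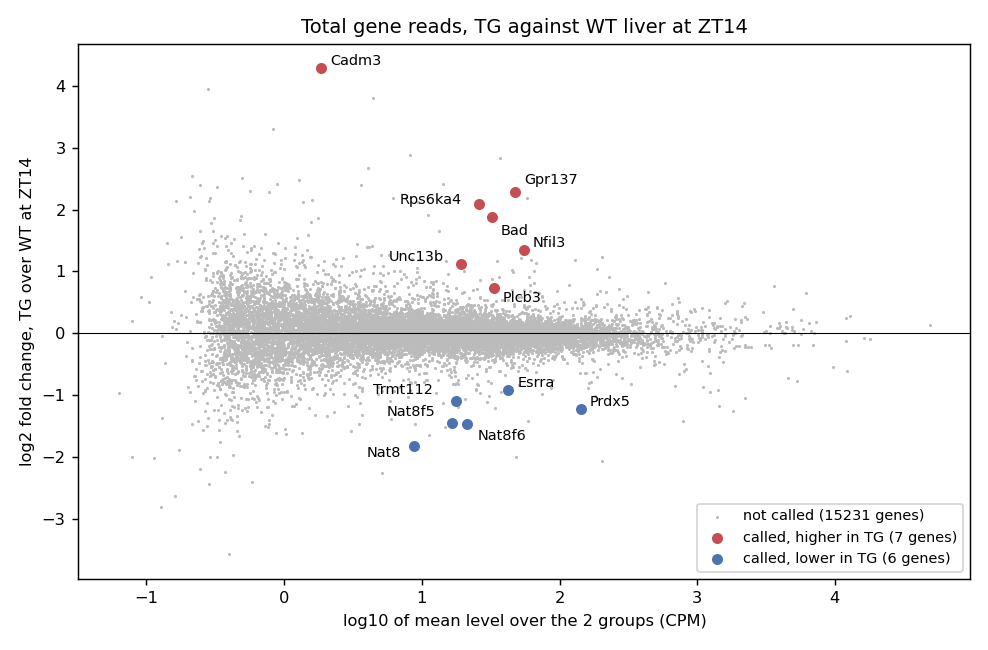
Log2 fold change of TG over WT at ZT14 (vertical axis) against the log10 of the mean level over both groups in CPM (horizontal axis) for 15244 genes on total gene reads. The 7 genes called higher (red) and the 6 called lower (blue) are named; the other genes are grey, and most of the named genes lie outside the grey cloud at their level.

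Nfil3 itself, on chromosome 13 (52967209 to 52981073, minus strand, build GRCm38), was higher in TG. Its level on total reads was 28.1, 40.4 and 24.6 CPM in the WT libraries and 63.8, 93.9 and 77.9 CPM in the TG libraries, in the order of their replicate numbers. Every TG library lay above every WT library. The WT mean was 31.1 ± 8.32 CPM and the TG mean 78.6 ± 15.1 CPM (SD, n = 3), a log2 fold change of 1.34 ± 0.21 (SE), or 2.53-fold, with an adjusted p of 0.0306 by edgeR's quasi-likelihood test. In 8 of the 12 fits that left out 1 library the call on total reads was lost, with adjusted p-values from 0.0568 to 0.217. These were the fits without WT replicate 1 or 3 or TG replicate 2 or 3 at ZT14, or without WT replicate 3 or any TG library at ZT2, and over all 12 fits the log2 fold change stayed between 1.19 and 1.58. Fitted on the 6 ZT14 libraries alone, Nfil3 passed on neither total nor exon reads. With the replicate number as a block in a fit of those 6 libraries, Nfil3 passed on both.

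Of the read classes, exon reads carried the difference of Nfil3. Exon reads numbered 557, 823 and 524 in WT and 1376, 2166 and 1892 in TG, with a log2 fold change of 1.46 ± 0.21 and an adjusted p of 0.0109 (edgeR; 0.074 and 0.11 without WT replicate 1 or WT replicate 3). Intron reads numbered 62, 124 and 49 in WT and 49, 60 and 68 in TG, and the 2 groups overlapped. Reads across an exon-exon junction, a class added after the data were seen, numbered 19, 38 and 20 in WT and 12, 15 and 22 in TG. Neither class was higher in TG: the log2 fold change was -0.45 ± 0.26 on intron reads (adjusted p = 0.997, edgeR) and -0.69 ± 0.46 on junction reads (adjusted p = 0.711, edgeR). The intron share of the gene's unique reads was 10.02%, 13.1% and 8.55% in WT and 3.44%, 2.70% and 3.47% in TG. Taken within each library, the intron difference less the exon difference was -1.83 ± 0.22 (adjusted p = 0.00906, limma), 1 of 2 such calls among 9620 genes (0.0208%). Leaving out WT replicate 1 or 2, or TG replicate 1 or 2, raised that adjusted p to between 0.0502 and 0.0956.

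**Figure D2:**
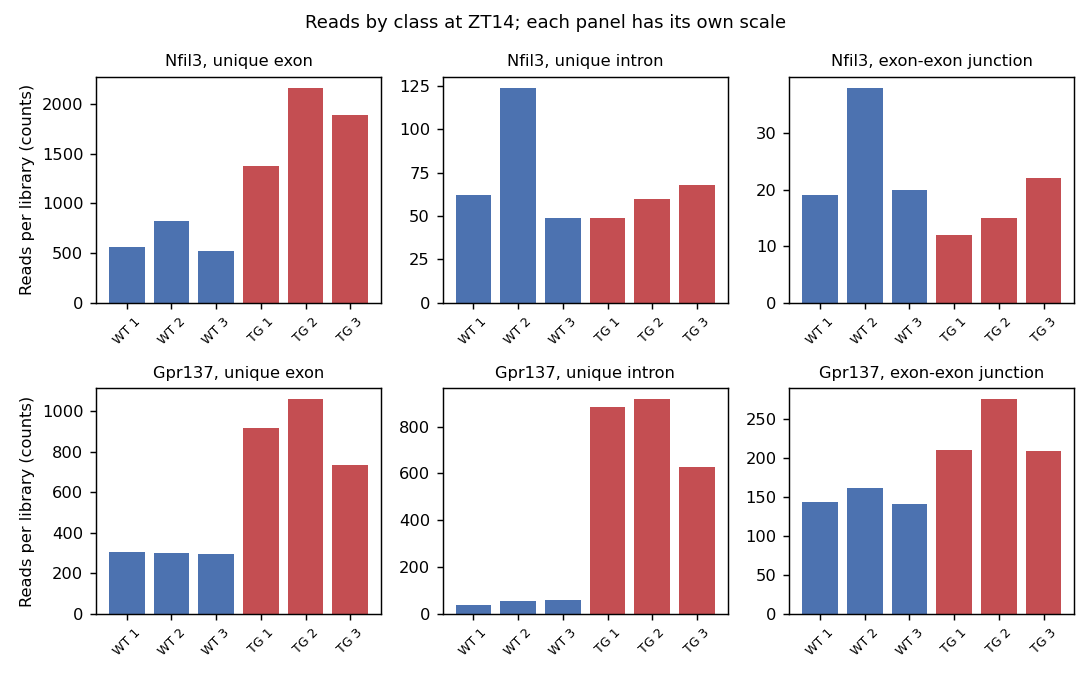
Reads per library (counts, vertical axes starting at 0, each panel on its own scale) of Nfil3 (top) and Gpr137 (bottom) in 3 classes, for the WT (blue) and TG (red) libraries at ZT14. Nfil3 is higher in TG on exon reads but not on intron or junction reads, and Gpr137 differs most on intron reads, with 37 to 59 reads in WT and 628 to 917 in TG.

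The genes of the activators that bind the same D-box elements as E4BP4 did not pass the test. Dbp was at 41.9, 34.9 and 24.5 CPM in WT and 44.0, 40.7 and 30.5 CPM in TG, Tef at 178 to 193 CPM in WT and 151 to 196 CPM in TG, and Hlf at 67.4 to 79.8 CPM in WT and 57.5 to 84.4 CPM in TG. The groups overlapped for each of them, with log2 fold changes of 0.19 ± 0.42, -0.08 ± 0.21 and -0.07 ± 0.15. Without TG replicate 3, Tef and Hlf had log2 fold changes of 0.02 and 0.06, so no direction can be given for them.

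Chromosome 19 held the most concentrated group of calls. Between Rps6ka4 and Plcb3 (chr19:6829085-6969759, 140.675 kb in GRCm38) the files list 12 genes, of which 9 were tested and 7 called, against 13 of 15244 (0.0853%) over all genes tested. The ends of the stretch were set at called genes of these same data, so the share called in it follows in part from that choice. Of the called genes, 4 were higher in TG (Gpr137, Bad, Rps6ka4 and Plcb3) and 3 lower (Prdx5, Trmt112 and Esrra). None of the 10 tested genes on either side of the stretch was called, and their smallest adjusted p was 0.644 on the side towards the start of the chromosome and 0.704 on the other (edgeR).

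Gpr137, a predicted seven-transmembrane protein of the lysosome, had the largest difference of the stretch. It was at 16.1, 16.3 and 16.3 CPM in WT and 87.4, 90.9 and 59.8 CPM in TG, a log2 fold change of 2.29 ± 0.16 or 4.89-fold (adjusted p = 6.32e-05, edgeR). All 3 TG libraries stood far above the WT libraries, with replicate 3 the lowest of the TG libraries. Its intron reads numbered 37, 55 and 59 in WT and 882, 917 and 628 in TG, a log2 fold change of 3.96 ± 0.26 (adjusted p = 1.11e-06, edgeR). Exon reads numbered 305, 298 and 294 in WT and 915, 1058 and 733 in TG (log2 fold change 1.55 ± 0.15). Junction reads numbered 144, 162 and 141 in WT and 211, 276 and 209 in TG, and their log2 fold change of 0.60 ± 0.15 did not pass the test (adjusted p = 0.244, edgeR). Intron reads thus rose more than exon reads: within libraries the difference was 2.37 ± 0.22 on the log2 scale (adjusted p = 0.000788, limma), and the intron share of unique reads went from between 10.8% and 16.7% in WT to between 46.1% and 49.1% in TG. Gpr137 (6938069 to 6942450, minus strand) overlaps the start of Bad on the plus strand, and the strand setting of the counting is not given in the sources used here, so reads of the shared bases cannot be assigned with certainty.

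Bad, a pro-apoptotic member of the BCL2 family (6941861 to 6951898, plus strand), was at 15.2, 11.9 and 14.2 CPM in WT and 57.9, 54.7 and 39.5 CPM in TG. The groups were well apart, with a log2 fold change of 1.88 ± 0.15 or 3.68-fold (adjusted p = 0.000176, edgeR). Unlike Gpr137, Bad moved by similar amounts in every class: 1.73 ± 0.14 on exon reads, 2.18 ± 0.25 on intron reads and 1.86 ± 0.18 on junction reads. Rps6ka4, which encodes the kinase MSK2 (6829085 to 6840601, minus strand), was at 11, 9.69 and 9.05 CPM in WT and 55.7, 44.2 and 27.6 CPM in TG. Its log2 fold change was 2.10 ± 0.22, or 4.28-fold (adjusted p = 0.00104, edgeR), and 2.08, 2.24 and 2.10 on exon, intron and junction reads; the intron call was lost without WT replicate 2 or WT replicate 3 (adjusted p = 0.057 and 0.0578, edgeR). Plcb3, a phospholipase C activated through G protein-coupled receptors (6953714 to 6969759, minus strand), was at 24.1, 24.7 and 26 CPM in WT and 41.7, 43.0 and 40.1 CPM in TG. This was a smaller but very even difference, with a log2 fold change of 0.74 ± 0.07 or 1.67-fold (adjusted p = 0.000606, edgeR).

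The 3 genes that fell lie side by side. Prdx5, an antioxidant peroxiredoxin (6906697 to 6910106, minus strand), was at 202, 191 and 208 CPM in WT and 73.2, 101 and 82.1 CPM in TG, 2.34-fold lower in TG with a log2 fold change of -1.23 ± 0.12 (adjusted p = 0.000606, edgeR). Trmt112, an activator subunit of several methyltransferases (6909698 to 6911049, plus strand), was at 24.6, 23.5 and 24.3 CPM in WT and 9.67, 12.1 and 12.2 CPM in TG, 2.13-fold lower (log2 fold change -1.09 ± 0.11, adjusted p = 0.000853, edgeR). Esrra, the nuclear receptor ERRα that drives mitochondrial genes (6910977 to 6921813, minus strand), was at 62.1, 52.9 and 52.1 CPM in WT and 29.5, 29.2 and 29.7 CPM in TG, 1.89-fold lower (log2 fold change -0.92 ± 0.10, adjusted p = 0.00104, edgeR). No TG library of these genes reached a WT library. Trmt112 overlaps both neighbours on the other strand, and on its junction reads (68, 64 and 66 in WT and 34, 31 and 57 in TG) it was not called, with a log2 fold change of -0.74 ± 0.23 (adjusted p = 0.411, edgeR). Prdx5 and Esrra kept their calls on junction reads, at -1.25 ± 0.10 and -0.96 ± 0.10.

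Kcnk4 and Ccdc88b, also tested here, were not called. Kcnk4, a two-pore-domain potassium channel between Esrra and Gpr137, had 11, 22 and 18 reads in WT and 56, 66 and 35 in TG, without overlap (log2 fold change 1.58 ± 0.45, adjusted p = 0.52, edgeR). Ccdc88b, next to Rps6ka4, was at 2.45 to 3.54 CPM in WT and 1.30 to 2.74 CPM in TG, and its groups overlapped.

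**Figure D3:**
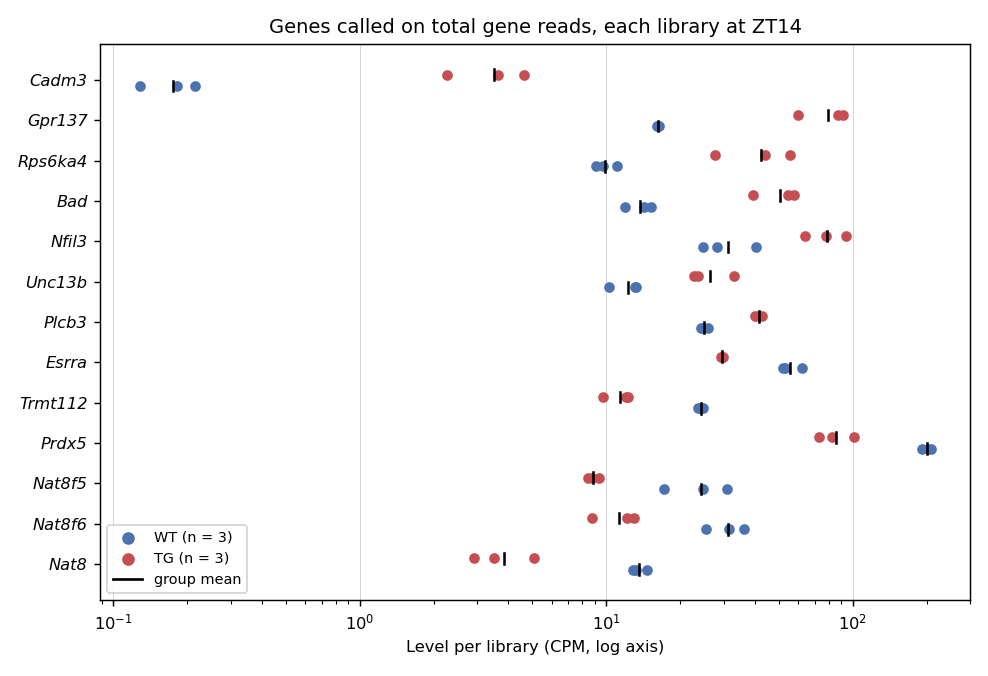
Level of the 13 genes called on total gene reads in each of the 6 libraries at ZT14 (CPM, log axis), WT in blue and TG in red, with black bars at the group means of 3 libraries. For each of these genes the 3 TG points lie on 1 side of the 3 WT points; Cadm3 is the gene with the lowest level, 0.128 to 0.214 CPM in WT.

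The promoters of the called genes were searched for the D-box that E4BP4 and the PAR bZIP proteins bind. RefSeq windows (GRCm38.p6) from 250 bases before to 50 bases after each annotated start were at hand for all 15 called genes, as 19 windows. None held TTATGTAA or TTACGTAA on either strand, which 0.782% and 0.182% of the 10994 tested genes with a window hold. The looser TTANNTAA, which contains both, was found in 1 of the 15 genes (6.67%), Plcb3, and in 4.75% of the tested genes with a window. A match is a description of these letters and not a measured site. RefSeq gives 3 windows for Gpr137 and 2 for Bad. The Gpr137 window printed is that at its start in the files and lies within the annotated span of Bad; of the Bad windows, chr19:6942312-6942611 (plus strand) overlaps it, and chr19:6941611-6941910 (plus strand), at the start of Bad in the files, does not. The Plcb3 window holds the single loose match, and Per3, a period gene of the core clock, is shown as a gene with TTATGTAA matches. Each is printed 5′ to 3′ on its own strand in lower case, with TTANNTAA matches in capitals.
Gpr137 (chr19:6942401-6942700, minus strand): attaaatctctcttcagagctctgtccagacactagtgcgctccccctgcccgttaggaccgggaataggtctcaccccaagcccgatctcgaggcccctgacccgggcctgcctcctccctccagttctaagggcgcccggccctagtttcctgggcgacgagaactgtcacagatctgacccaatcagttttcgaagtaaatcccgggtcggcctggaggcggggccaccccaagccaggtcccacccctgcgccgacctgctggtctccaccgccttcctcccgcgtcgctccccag
Plcb3 (chr19:6969765-6970064, minus strand): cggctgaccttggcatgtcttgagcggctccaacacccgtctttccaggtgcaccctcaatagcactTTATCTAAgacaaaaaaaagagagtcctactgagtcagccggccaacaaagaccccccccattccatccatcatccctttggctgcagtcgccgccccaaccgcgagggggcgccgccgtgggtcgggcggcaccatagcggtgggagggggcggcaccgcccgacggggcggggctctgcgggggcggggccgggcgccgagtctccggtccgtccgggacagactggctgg
Per3 (chr4:151044616-151044915, minus strand): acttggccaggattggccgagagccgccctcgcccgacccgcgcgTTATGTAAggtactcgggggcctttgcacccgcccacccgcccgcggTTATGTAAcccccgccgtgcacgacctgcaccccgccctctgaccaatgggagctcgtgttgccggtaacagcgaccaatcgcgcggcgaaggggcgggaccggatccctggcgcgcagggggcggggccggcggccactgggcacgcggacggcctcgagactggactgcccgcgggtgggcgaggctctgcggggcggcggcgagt

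The match in Plcb3 starts 183 bases before the annotated start, and those in Per3 start 205 and 158 bases before it. Plcb3 was called higher in TG, as given above. Per3, with 2 matches, was at 31.6, 49.996 and 35.5 CPM in WT and 33.8, 33.0 and 29.98 CPM in TG, with overlapping groups and a log2 fold change of -0.28 ± 0.22 (adjusted p = 0.817, edgeR).

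The Nat8 family encodes N-acetyltransferases of the endoplasmic reticulum that are abundant in liver and kidney and include the enzyme of mercapturate formation. Of 8 members tested, 5 were lower in TG at an unadjusted p under 0.05, 3 of them with an adjusted p under 0.05, and none was higher. Of all genes tested, 3.38% and 0.0394% were lower at these thresholds. The median log2 fold change of the family was -1.18, beside 0.01 for all genes, and 2 of the 8 were above 0. The summed level of the family list overlapped between the groups, at 987 to 1125 CPM in WT and 948 to 1073 CPM in TG. The called members were at 12.9 to 36.3 CPM in WT. Nat8 (chr6:85830388-85832082, minus strand) was at 12.9, 13.2 and 14.6 CPM in WT and 3.49, 5.11 and 2.90 CPM in TG, 3.54-fold lower (log2 fold change -1.82 ± 0.21, adjusted p = 0.00167, edgeR). Nat8f6 was at 31.6, 25.4 and 36.3 CPM in WT and 12.9, 12.1 and 8.75 CPM in TG, 2.76-fold lower (log2 fold change -1.47 ± 0.18, adjusted p = 0.00373, edgeR). Nat8f5 was at 24.6, 17.1 and 30.8 CPM in WT and 8.73, 9.33 and 8.47 CPM in TG, 2.73-fold lower (log2 fold change -1.45 ± 0.22, adjusted p = 0.0287, edgeR). The groups did not overlap for any of these genes.

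Nat8f5 and Nat8f6 overlap on the same strand, so their reads are uncertain. The unique reads of Nat8f5 were all junction reads (203, 144 and 257 in WT and 76, 76 and 88 in TG), and most unique reads of Nat8f6 were intronic (270, 229 and 310 in WT and 124, 102 and 88 in TG). On exon reads both were lower without passing the test, at -1.38 ± 0.24 and -1.90 ± 0.35 (adjusted p = 0.0698 and 0.0844, edgeR). On junction reads Nat8f5 passed, at -1.37 ± 0.23 (adjusted p = 0.0364, edgeR). Nat8f6 did not, at -2.41 ± 0.66 (adjusted p = 0.322, edgeR). Nat8f5 also lost its call on total reads in 7 of the 12 fits that left out 1 library (WT replicate 1 or 3 or any TG replicate at ZT14, WT or TG replicate 3 at ZT2), with adjusted p-values between 0.0515 and 0.161. On intron reads Nat8f6 passed, at -1.43 (adjusted p = 0.0298, edgeR), but not in the fits without WT replicate 1 or 3 or any TG replicate at ZT14, or TG replicate 1 or 3 at ZT2 (0.0508 to 0.236). A further member, Nat8f1, was at 150.1, 176 and 145 CPM in WT and 113, 129 and 117 CPM in TG. Its log2 fold change of -0.40 ± 0.09 did not pass the test (adjusted p = 0.235, edgeR), though DESeq2 called it.

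Cadm3, a cell adhesion molecule best known from neurons (chr1:173333258-173367695, minus strand), had the largest fold change of the called genes on few reads. It had 4, 3 and 5 reads in the WT libraries and 104, 86 and 57 in the TG libraries. The WT mean was 0.175 ± 0.0436 CPM and the TG mean 3.52 ± 1.20 CPM (SD, n = 3), a log2 fold change of 4.28 ± 0.38 (adjusted p = 0.000387, edgeR), which stayed between 4.03 and 4.52 when 1 library was left out. Junction reads, 1, 1 and 0 in WT and 38, 37 and 25 in TG, showed spliced Cadm3 RNA in each TG library. At ZT2 the WT libraries had 28, 24 and 39 total reads of the gene and the TG libraries 35, 58 and 53. The TG libraries were thus at a similar level at both times, 2.27 to 4.66 CPM at ZT14 and 2.02 to 3.19 CPM at ZT2, while the WT libraries were low at ZT14 alone.

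Unc13b, a regulator of vesicle priming (chr4:43058953-43264871, plus strand), was at 13.1, 10.2 and 13.3 CPM in WT and 33.0, 22.7 and 23.7 CPM in TG. All TG libraries were above the WT libraries, with a log2 fold change of 1.11 ± 0.15 or 2.16-fold (adjusted p = 0.0121, edgeR), and exon, intron and junction reads gave 1.14, 1.05 and 1.21. Without WT replicate 2 or WT replicate 3 its adjusted p on total reads was between 0.0509 and 0.0742; on exon reads it passed in every fit that left out 1 library.

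Sult5a1 and Erbb4 were called on exon or intron reads but not on total reads. Sult5a1, a sulfotransferase (chr8:123142847-123158315, minus strand), had 75, 95 and 73 exon reads in WT and 210, 499 and 220 in TG. The log2 fold change was 1.88 ± 0.31 (adjusted p = 0.0432, edgeR), TG replicate 2 was the highest, and 8 of the 12 fits without 1 library, those lacking any WT library at ZT14, WT replicate 2 or 3 at ZT2 or any TG library at ZT2, gave adjusted p-values between 0.0537 and 0.326. On total reads Sult5a1 did not pass (2.42 ± 0.43, adjusted p = 0.0843, edgeR), though it did without any 1 of the TG libraries at ZT14 (0.0304 to 0.0497). DESeq2 called Sult5a1 on total reads. On junction reads it passed, at 1.89 ± 0.30 (adjusted p = 0.0248, edgeR). Erbb4, a receptor tyrosine kinase of the EGF receptor family (chr1:68032186-69108059, minus strand), was lower on intron reads, with 103, 161 and 165 reads in WT and 60, 62 and 74 in TG. This gave a log2 fold change of -1.18 ± 0.18 (adjusted p = 0.0186, edgeR), which did not pass in 5 of the 12 fits without 1 library (WT replicate 2 or 3 or any TG replicate at ZT14, adjusted p 0.0793 to 0.206). Exon reads of Erbb4 were few and overlapped, 25 to 50 in WT and 20 to 35 in TG (log2 fold change -0.35 ± 0.36). The difference between its intron and exon changes, -0.84 ± 0.35, did not pass either (adjusted p = 0.999, limma). On total reads DESeq2 called Erbb4, while edgeR did not.

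**Figure D4:**
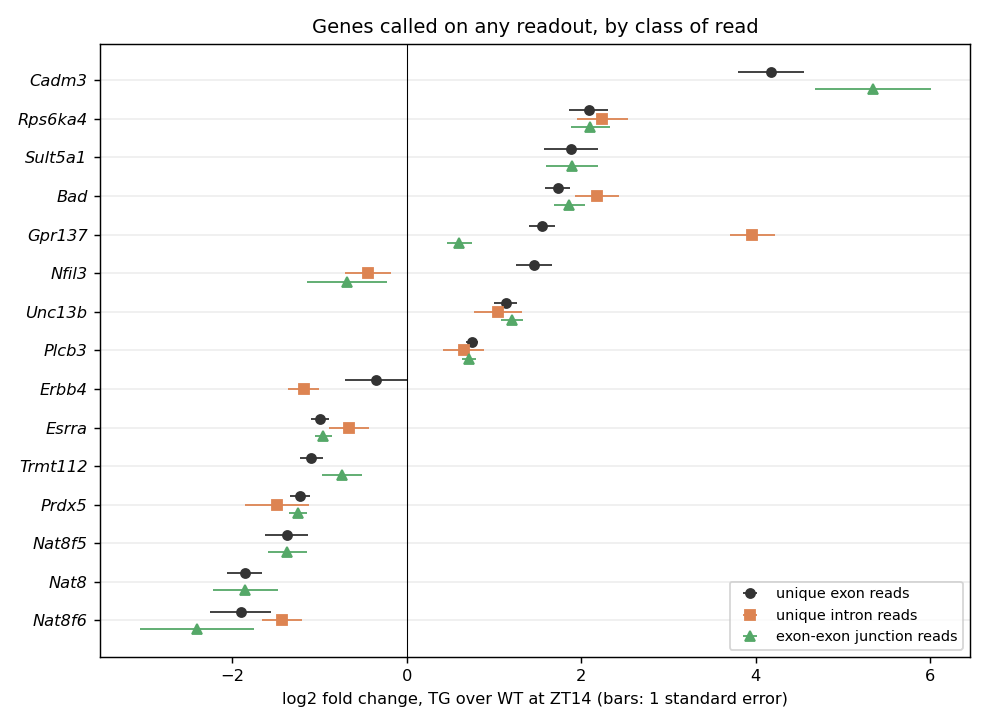
Log2 fold change of TG over WT at ZT14 (horizontal axis, bars of 1 SE) for the 15 genes called on total, unique exon or unique intron reads. Symbols give unique exon reads (black circles), unique intron reads (orange squares) and exon-exon junction reads (green triangles). A missing symbol means that the gene was not tested in that class. The classes lie close together for most genes, whereas Nfil3 is above 0 on exon reads alone and Gpr137 ranges from 0.60 on junction reads to 3.96 on intron reads.

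Among genes that did not pass the threshold, Elovl3 had the largest difference in fatty acid synthesis. Elovl3 elongates very long chain fatty acids and is a known rhythmic gene of male mouse liver. It was at 34.1, 88.3 and 111 CPM in WT and 11.9, 22.7 and 23.8 CPM in TG, without overlap, a log2 fold change of -2.00 ± 0.35 (adjusted p = 0.0843, edgeR). WT replicate 1 was the lowest WT library, and without it the adjusted p was 0.00306. On junction reads Elovl3 passed, at -1.97 ± 0.31 (adjusted p = 0.0248, edgeR), and DESeq2 called it on total reads.

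The genes named next, like Elovl3, were picked by the smallest p among genes below the threshold whose groups did not overlap. The lack of overlap was thus a condition of their selection and not a result. On the lower side, Mme, the membrane metalloendopeptidase neprilysin, was at 42.7 to 52.2 CPM in WT and 12.3 to 27.1 CPM in TG (-1.21 ± 0.23, adjusted p = 0.122, edgeR). Ipmk, an inositol polyphosphate kinase, was at 69.4 to 93.3 CPM in WT and 56.5 to 58.7 CPM in TG (-0.51 ± 0.09). Tgfbr2, a receptor of transforming growth factor beta, was at 41.9 to 47.4 CPM in WT and 26.1 to 33.2 CPM in TG (-0.61 ± 0.12). Vac14, Stim2, Marveld1, Umps and Fam107b had log2 fold changes between -0.57 and -0.36. None of these 8 genes was called by edgeR, their adjusted p-values lying between 0.112 and 0.252. DESeq2 called all 8.

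On the higher side, Ntrk2, a neurotrophin receptor, was at 1.00, 1.02 and 1.42 CPM in WT and 2.91, 5.40 and 9.94 CPM in TG (2.40 ± 0.51, adjusted p = 0.198, edgeR), with TG replicate 3 the highest. Cyp17a1, the steroid 17-hydroxylase, was at 3.60 to 5.85 CPM in WT and 12.2 to 27.3 CPM in TG (1.92 ± 0.47). Mt1, a metallothionein that stress and metals induce, was at 14.6, 5.08 and 7.55 CPM in WT and 69.8, 21.3 and 104 CPM in TG (2.84 ± 0.65, adjusted p = 0.282, edgeR), and its TG libraries differed widely among themselves. S1pr5, As3mt, Foxp4, Fgfr1 and Apon had log2 fold changes between 0.35 and 0.85, and the interferon genes Ifi27, Ifi27l2b and Ifit1 between 0.61 and 1.26. DESeq2 called each of these higher genes except Cyp17a1. On junction reads Ifi27l2b passed, at 1.42 ± 0.24 (adjusted p = 0.0388, edgeR).

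Members of 34 gene lists, chosen with earlier results of these data known, were counted without a test of the lists. Calls within the lists are those of edgeR unless another tool is named. Of 630 tested genes on any list, 6 were called and 15.4% reached an unadjusted p under 0.05, 53 higher and 44 lower, beside 6.91% of all genes tested. The score of a list in a library is the mean over its members of log2 CPM less the WT mean at ZT14.

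No core clock gene was called. Of 19 tested, none was higher and 2 (10.5%) were lower at an unadjusted p under 0.05, beside 3.52% and 3.38% of all genes, and 1 was lower without WT replicate 2 or WT replicate 3. The median log2 fold change was -0.10, and the scores were 0.02, -0.03 and 0.00 in WT and -0.17, -0.09 and -0.11 in TG, without overlap. Npas2, a partner of BMAL1, had 13, 7 and 13 reads in WT and 4, 1 and 1 in TG, few reads in both groups (log2 fold change -2.43, adjusted p = 0.122, edgeR). DESeq2 called Npas2 (adjusted p = 0.0391), as did edgeR with the looser filter on low counts (0.0202) and without TG replicate 1 (0.0302); over all alternatives run, the adjusted p of the gene ranged from 0.0202 to 0.646. Per2, at 107 to 115 CPM in WT and 90.3 to 124 CPM in TG, and Arntl, which encodes BMAL1, at 8.91 to 15.8 CPM in WT and 5.51 to 13.2 CPM in TG, had overlapping groups. The list of 14 tested D-box output genes had 1 higher and 2 lower members at an unadjusted p under 0.05 and a median of -0.03; without TG replicate 3 or WT replicate 1 it had none in either direction, and without WT replicate 2 or WT replicate 3 none was higher. Its higher member, Cyp2a4, a cytochrome P450 known to be more abundant in females, had 12, 16 and 13 reads in WT and 11, 33 and 579 in TG, with nearly all of the TG reads in replicate 3.

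No gene of fatty acid synthesis was called by edgeR, while DESeq2 called at least Elovl3, Gpam and Pnpla3. Of 25 tested, 5 had a log2 fold change above 0, beside 7867 of 15244 of all genes; 10 (40.0%) were lower and 3 (12.0%) higher at an unadjusted p under 0.05, beside 3.38% and 3.52% of all genes. The list had a median log2 fold change of -0.27, and its scores were -0.12, 0.06 and 0.05 in WT and -0.38, -0.32 and -0.40 in TG, without overlap. Besides Elovl3, Gpam, the first acyltransferase of triglyceride synthesis, was at 218, 235 and 257 CPM in WT and 176, 163 and 138 CPM in TG (-0.57 ± 0.13, adjusted p = 0.305, edgeR). Me1, which supplies NADPH, Thrsp, a lipogenic regulator, and Mlxipl, the carbohydrate-responsive factor ChREBP, had log2 fold changes of -0.81, -0.95 and -0.39. Pnpla3, a lipid droplet protein with triglyceride hydrolase activity, was at 13.4, 13.9 and 12.1 CPM in WT and 2.37, 3.08 and 8.67 CPM in TG (-1.47, adjusted p = 0.39, edgeR); TG replicate 3 was nearest to WT, and without it the adjusted p was 0.00208. The 3 higher members included the desaturases Fads1 and Fads2, at 0.42 and 0.39. Without TG replicate 3 the counts were 7 lower and 1 higher, with a median of -0.26, without WT replicate 2 they were 6 lower and 2 higher, and without WT replicate 3 they were 9 and 1. Leaving out any 1 library at ZT14 kept the median between -0.27 and -0.22.

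Acute phase genes encode plasma proteins that the liver secretes in inflammation. Of 34 tested, 14 (41.2%) were higher and none lower at an unadjusted p under 0.05, beside 3.52% and 3.38% of all genes. None was called by edgeR, while DESeq2 called at least Mt1. Of the list, 28 had a log2 fold change above 0, and the median was 0.42. The scores were 0.10, -0.14 and 0.04 in WT and 0.61, 0.17 and 0.72 in TG, so TG replicate 2 was close to WT. The complement factor C3 was at 4664, 5095 and 4622 CPM in WT and 7289, 5690.3 and 9628 CPM in TG (0.65 ± 0.19, adjusted p = 0.525, edgeR). Serpina3m, a protease inhibitor, was at 984 to 1175 CPM in WT and 1356 to 1389 CPM in TG (0.38 ± 0.11), and the serum amyloid gene Saa2, the lipopolysaccharide-binding protein gene Lbp and the haptoglobin gene Hp had log2 fold changes of 2.18, 0.65 and 0.50. Without TG replicate 3 the list had 9 higher members and a median of 0.31.

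Interferon response genes are the antiviral genes that interferons induce. Of 33 tested, 11 (33.3%) were higher and none lower at an unadjusted p under 0.05, beside 3.52% and 3.38% of all genes. None was called by edgeR, while DESeq2 called at least Ifit1 and Ifi27. Of the list, 29 had a log2 fold change above 0, and the median was 0.24. The scores were 0.07, -0.10 and 0.02 in WT and 0.16, 0.46 and 0.38 in TG. Ifit1 was at 2.99 to 3.50 CPM in WT and 5.6 to 7.16 CPM in TG (0.98 ± 0.20), and Mx1, an antiviral GTPase, at 0.819 to 1.07 CPM in WT and 2.10 to 2.23 CPM in TG (1.23 ± 0.32). Without TG replicate 2 there were 6 higher members, and without TG replicate 3 there were 9.

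Markers of blood and stromal cells were counted in the same way, beside 3.52% of all genes higher and 3.38% lower at an unadjusted p under 0.05. None of 14 tested macrophage markers and none of 12 lymphocyte and NK markers differed at an unadjusted p under 0.05, and at most 1 of each list did when 1 library at ZT14 was left out; the summed level of the macrophage list was 476 to 572 CPM in WT and 448 to 623 CPM in TG, and that of the lymphocyte list 11.1 to 13.8 CPM in WT and 12.3 to 15.5 CPM in TG. Of 7 tested erythroid genes 3 were higher at that p, all of them globins, the list summed to 253 to 282 CPM in WT and 309 to 449 CPM in TG, and without TG replicate 3 none reached that p, without WT replicate 2 there was 1 and without WT replicate 3 there were 2. Of 17 tested stellate cell and fibroblast markers 3 were higher, and the list summed to 365 to 394 CPM in WT and 375 to 530.1 CPM in TG; without TG replicate 3 none was higher, without WT replicate 2 or WT replicate 3 there was 1, and without TG replicate 2 there were 5. Of 4 tested neutrophil markers 1, S100a8, was higher, and the list summed to 3.28 to 4.45 CPM in WT and 3.37 to 6.21 CPM in TG; 1 marker reached that p without TG replicate 1, and none did without any of the other 5 libraries at ZT14. No defining marker of these lists was at 0 in all 6 libraries, and their part in the acute phase and interferon results was not tested.

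Liver also holds genes that differ between the sexes, and 2 lists cover them. Of 18 female-biased genes tested, 5 (27.8%) were higher and none lower at an unadjusted p under 0.05, beside 3.52% and 3.38% of all genes. The median of the list was 0.46. Without WT replicate 3 there were 3 higher, and without WT replicate 2 there were 3 higher and 1 lower. Ntrk2, Cyp17a1 and Cyp2a4, given above, were among them. The scores were 0.10, -0.05 and -0.06 in WT and 0.04, 0.46 and 1.22 in TG, so that replicate 1 lay among the WT libraries and replicate 3 far above them. Male-biased genes scored 0.17, 0.14 and -0.68 in the TG libraries. Of 36 tested, 2 (5.56%) were higher and 4 (11.1%) lower, beside the same 3.52% and 3.38% of all genes. Without TG replicate 3 there was 1 in each direction, without TG replicate 2 there were 1 higher and 4 lower, without WT replicate 1 none and 3, and without WT replicate 3 there were 1 and 2. Without TG replicate 3 the female-biased list had 3 higher and 1 lower member and a median of 0.26.

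No gene of the remaining metabolic and stress lists was called. Their counts stand beside 3.52% of all genes higher and 3.38% lower at an unadjusted p under 0.05. All 36 tested oxidative phosphorylation genes had a log2 fold change below 0, from -0.41 to -0.05, beside 7867 of 15244 genes above 0 over all genes tested. Of them 4 (11.1%) were lower at an unadjusted p under 0.05, beside 3.38% of all genes, the scores of the TG libraries were -0.42, -0.01 and -0.14, and the median of -0.16 went to -0.07 without TG replicate 1. No member reached that p without TG replicate 1, WT replicate 1 or WT replicate 2, 1 did without WT replicate 3, and 17 did without TG replicate 2. When libraries were scaled by their size alone, the median was -0.14. Of 36 ribosomal protein genes, 2 had a log2 fold change above 0 and 1 was lower at that p, with scores of -0.38, -0.05 and -0.01 in the TG libraries; 8 were lower without TG replicate 3 or WT replicate 2, 4 without TG replicate 2, and none without TG replicate 1, WT replicate 1 or WT replicate 3. Of 25 cholesterol synthesis genes 1 was higher and 1 lower; without TG replicate 3 there were 4 higher and none lower, and the median went from 0.12 to 0.31, while without TG replicate 1 it was -0.09. Without WT replicate 2 or WT replicate 3 none of these genes reached that p in either direction. Of 19 bile acid genes 3 were lower, but none without TG replicate 1, TG replicate 3 or WT replicate 3, and 1 without WT replicate 2. Of 27 genes of fatty acid oxidation 3 were higher and 2 lower, against 1 higher and 8 lower without TG replicate 2 and 5 higher and 1 lower without TG replicate 3. Without TG replicate 1 there were 2 higher and none lower, without WT replicate 1 there were 4 and 3, without WT replicate 2 there were 2 and 1, and without WT replicate 3 there was 1 in each direction. None of 22 heat shock genes and none of 24 immediate early genes reached an unadjusted p under 0.05. From 24 endoplasmic reticulum stress genes and 22 NRF2 targets, 1 each did, both lower. With 1 library at ZT14 left out, at most 3 members of any of these 4 lists did in either direction. Yet 21 of the 24 endoplasmic reticulum stress genes had a log2 fold change above 0, with a median of 0.21. Without TG replicate 1 that median was 0.06. The scores of this list overlapped, at 0.25, -0.15 and -0.10 in WT and 0.45, 0.16 and -0.06 in TG. Above 0 were also 18 of 24 immediate early genes, 12 of 22 heat shock genes and 10 of 22 NRF2 targets.

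**Figure D5:**
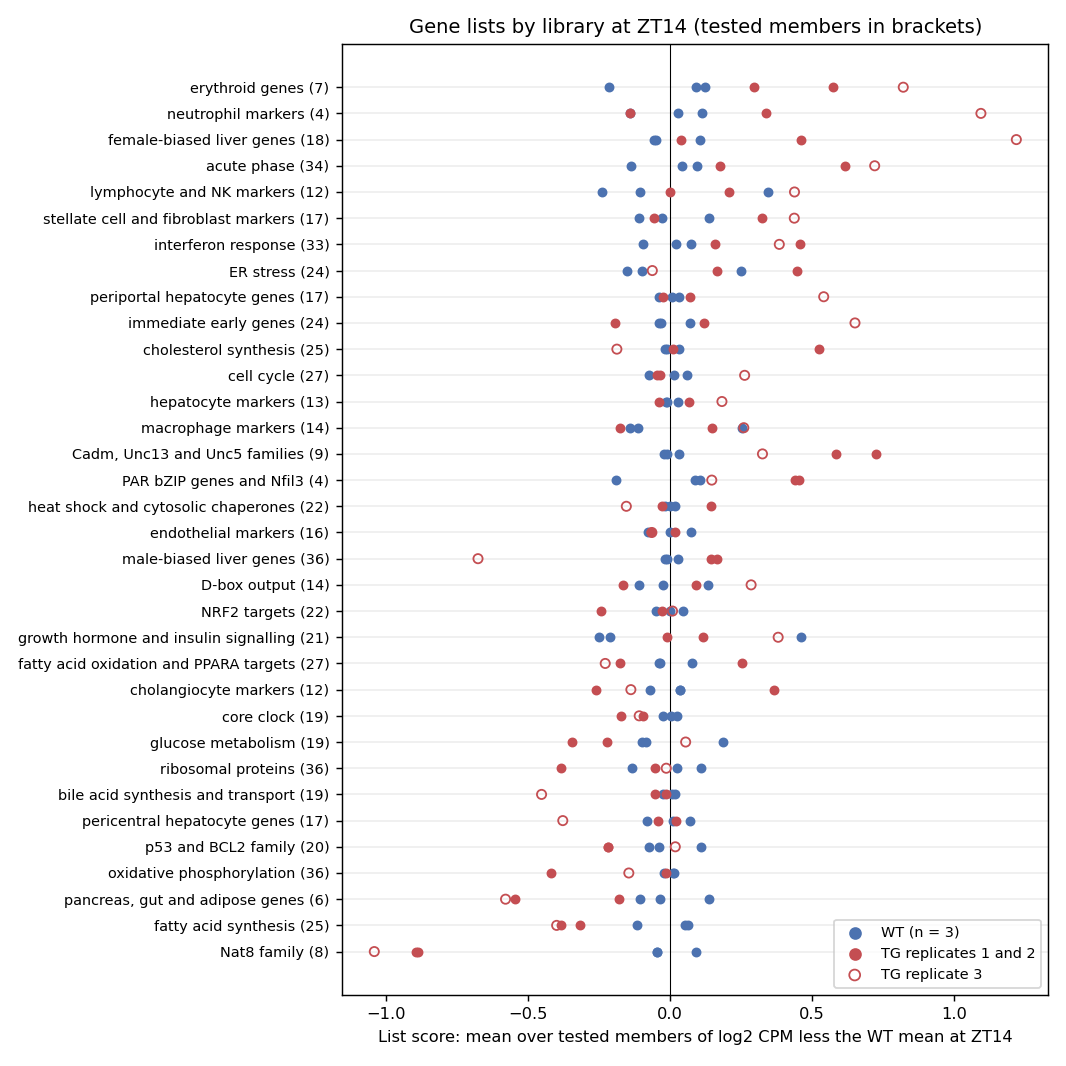
Score of each gene list in each library at ZT14 (horizontal axis, mean over tested members of log2 CPM less the WT mean at ZT14), ordered by the median log2 fold change, with WT in blue, TG replicates 1 and 2 in filled red and TG replicate 3 in open red. All TG points lie below the WT points for the Nat8 family, fatty acid synthesis, core clock and pancreas, gut and adipose lists, and above them for the acute phase, interferon, erythroid, PAR bZIP with Nfil3 and Cadm, Unc13 and Unc5 lists, while TG replicate 3 is the highest library for female-biased genes and the lowest for male-biased genes. The PAR bZIP list holds the called gene Nfil3, and the Cadm, Unc13 and Unc5 list holds the called genes Cadm3 and Unc13b. Their median log2 fold changes were 0.059 and 0.066. The Nat8 family also holds called genes. The separation of TG from WT points was not tested, and with 3 libraries a group it can arise without a genotype difference.

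The same difference was set beside that at ZT2, where 11 genes were called (0.0722%). The ZT2 libraries are others, but both times were fitted together with a common estimate of the spread. Calls at the 2 times are therefore not independent. Gpr137, Bad, Plcb3, Prdx5, Trmt112, Esrra and Unc13b passed at both times, with log2 fold changes at ZT2 of 1.92, 1.26, 0.48, -1.08, -1.15, -1.06 and 1.26. Rps6ka4 was at 1.06 ± 0.23 (adjusted p = 0.214) and Nat8 at -1.34 ± 0.22 (adjusted p = 0.0509, edgeR) at ZT2. For Nfil3 itself the change at ZT2 was 0.81 ± 0.21 (adjusted p = 0.359), and the difference between the times, 0.53 ± 0.29, did not pass (adjusted p = 0.873, edgeR). For Nat8f6 the fold change was 0.03 ± 0.21 at ZT2, and the difference between the times was -1.50 ± 0.28 (adjusted p = 0.283, edgeR). For Cadm3 the change at ZT2 was 0.73 ± 0.30 and the difference 3.55 ± 0.50 (adjusted p = 0.0519, edgeR; 0.0162 without TG replicate 3 at ZT14).

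One gene of 15244 (0.00656%) differed between the times in the genotype effect itself. Ppard, the nuclear receptor PPARδ (chr17:28232754-28301469, plus strand), was at 18.1, 22.1 and 20.4 CPM in WT and 16.6, 16.7 and 16.7 CPM in TG at ZT14, a log2 fold change of -0.28 ± 0.11 that was not called. At ZT2 the gene was higher in TG, by 1.18 ± 0.11 (adjusted p = 0.000815, edgeR), and the difference between the times was -1.46 ± 0.16 (adjusted p = 0.0109, edgeR). Leaving out TG replicate 2 at ZT2, WT replicate 3 at ZT14 or TG replicate 2 at ZT14 gave adjusted p-values between 0.0533 and 0.0609. Without adjustment 912 genes (5.98%) had a p under 0.05 for this difference, and DESeq2 called 21 genes.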

How the data were processed

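Total, unique exon, exon-exon and intron read counts per gene were deposited by the authors for 12 mouse liver poly(A) libraries, of which 6 are compared here. Per the file headers the tables also hold TPM and RPKM values computed by the authors; neither enters a result. The genome builds GRCm38 and mm10 come from the submitters' processing notes; aligner, counter and strand setting were not given in the sources used here. Gene positions are those in the deposited tables.

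Genes were filtered with filterByExpr (minimum count 10, minimum total 15), scaled by TMM and tested with edgeR's quasi-likelihood test (edgeR 4.0.16, R 4.3.3) on all 12 libraries as 4 groups with a common estimate of the spread. P-values were adjusted by Benjamini-Hochberg over all genes tested, and a gene was called below 0.05. Exon, intron and junction reads were fitted the same way, each scaled to its own class, so CPM values compare within a class. Intron less exon values were tested per library with limma 3.58.1 for genes with on average at least 10 reads in both classes. The scripts were tested on simulated data. Alternatives were DESeq2 1.42.0, limma-voom, other scalings and filters, unique reads, the 6 ZT14 libraries alone, a replicate block and leaving out each library. Replicates of a group differed beyond sampling noise, with chi-square per degree of freedom of 9.85 or more. At this depth a gene with fewer than about 10 reads per library is measured poorly.

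The genes named are Nfil3, every gene called on total, exon or intron reads, and 12 further genes per direction. Those 12 had the smallest p among the others whose groups do not overlap and that reach 5 CPM. Up to 4 members per list, the genes of the chromosome 19 stretch and 5 genes per further comparison were added. Of all these the text gives a selection. The members, lists and alternatives were chosen with earlier results of these data known.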

Additional observations from a re-analysis of the deposited data

Results flagged for a closer look

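Ppard differed between the times of day: its genotype difference at ZT14 less that at ZT2 was -1.46 ± 0.16 on the log2 scale (adjusted p = 0.0109, edgeR), and every TG library lay below every WT library at ZT14 and above every WT library at ZT2. Another 3 results are gene lists whose median log2 fold change had opposite signs at the 2 times; for these the difference between the times was not tested. Fatty acid synthesis had a median of -0.27 at ZT14 and 0.26 at ZT2, acute phase genes had 0.42 and -0.30, and the PAR bZIP genes with Nfil3 had 0.059 and -0.21. In the last list Nfil3 was the single gene called at ZT14.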

How the results depend on the processing

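The number of genes called on total reads was 13 with each of the scalings tried (TMM, DESeq2's size factors, library size alone), 14 with limma-voom, 10 with the 6 ZT14 libraries alone and 12 on junction reads, an alternative chosen after seeing the data. In the fit of the 6 ZT14 libraries alone, Nfil3, Nat8f5 and Unc13b did not pass on total reads. DESeq2 called 53, and without the filter on low counts (at least 1 read in total) 41 were called. On exon reads DESeq2 called 65 and the looser filter 26, and on intron reads 8 and 109; intron reads gave 3 calls with the 6 ZT14 libraries alone, 3 at an adjusted p below 0.01, and 2 to 5 when 1 library was left out. The cause of these differences was not tested. For the difference between times DESeq2 called 21 genes, and leaving out 1 library gave 0 to 3; the intron less exon comparison then gave 1 to 2. Of 82 named results, 33 had the same call and direction under every alternative run and 4 reversed. Nfil3 was at -0.69 on junction reads, Dbp ran from -0.00025 without WT replicate 3 to 0.37 without WT replicate 1, Tef from -0.17 without TG replicate 1 to 0.017 without TG replicate 3 (0.013 also without TG replicate 2 at ZT2), and Hlf from -0.21 to 0.062 (0.058) in the same fits.

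Same-numbered WT and TG libraries at ZT14 shared little: the correlations of their deviations were 0.0499, 0.0463 and 0.0371, although each library correlated best with its own number, so the numbers were not taken as pairs. With the replicate number as a block in a fit of the 6 ZT14 libraries, 7 genes were called on total reads (5 higher and 2 lower, 5 of them shared with the fit without the block), 16 on exon reads and 4 on intron reads. On total reads Plcb3, Prdx5, Trmt112, Esrra, Nat8, Nat8f5, Nat8f6 and Unc13b did not pass in that fit (adjusted p 0.0557 to 0.119), in the same direction as without the block, and Elovl3 did (0.0221). With 3 libraries a group, genes with few reads such as Cadm3 in WT and Npas2 are limited by counting error.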
